A study of Mus musculus with 4 samples.

Results

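The genes described here are those of the G2 phase and of mitosis, the part of the cell cycle in which a cell condenses its duplicated chromosomes, attaches them to a spindle, separates them and divides. They were taken from a list of 49 gene symbols, and each gene was read from the probe set that names it alone and has the highest mean over all arrays. Of these, 46 were measured, among 10926 genes in all, and no measured gene was dropped for a low level. Ccnb1, Kif23 and Nuf2 were not analysed here. The cells were mouse brown adipocytes of wild-type genotype, grown from preadipocytes that expressed either vector alone or Blnc1, a long noncoding RNA named brown fat lncRNA 1, and differentiated for 6 days before harvest. Each group had 2 arrays, labelled as biological replicates. Separate transductions are not stated, nor are the age and sex of the source animals, so the p-values measure only the spread between these arrays. The number of arrays limits the precision.

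In several culture models preadipocytes divide a limited number of times after the differentiation stimulus and then leave the cell cycle, and mature adipocytes rarely divide. Transcripts of mitotic genes are made mainly in G2 and M, so in a culture they stand for its dividing cells. In bulk RNA, fewer dividing cells and less mitotic RNA per cell cannot be told apart. The system works in sequence. Cyclin A2 and the B-type cyclins activate the kinase CDK1, condensins and topoisomerase II compact the chromosomes, kinetochores bind them to the spindle, and the spindle checkpoint restrains the activator CDC20 until every chromosome is attached. The anaphase-promoting complex with CDC20 then destroys cyclin B and securin, and the central spindle directs cytokinesis.

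Many G2/M genes carry a cell cycle homology region (CHR) near the transcription start, which is bound by the MuvB complexes, and upstream CCAAT boxes, which are bound by NF-Y. Promoter windows from 250 bases before to 50 bases after a start were taken from RefSeq (GRCm38.p6), which held 42 windows for 39 of the measured genes. A CHR was searched as TTTGAA on either strand, read as TTTGAA or TTCAAA, or as TTCGAA, which reads the same on both strands. A CCAAT box was searched as CCAAT or ATTGG. A CHR match was present in 83.3% of the windows of these genes and in 19.2% of all 32851 windows in the table. A CCAAT match was present in 76.2% and 37.4%, 2 or more CCAAT matches in 52.4% and 11.7%, and a CHR with a CCAAT match in 73.8% and 7.52%. Such a match is a description of the letters and does not show that a factor binds there. The 150 bases before the start are shown for 4 genes that hold both motifs, namely Cdc20, which changed most clearly in its role group, Cdk1, Ube2c and Kif11, and for Mad2l1, which has neither motif in its window. Capitals mark the CHR and CCAAT matches. The windows lie at chr4:118437344-118437493 (Cdc20, minus strand), chr10:69352913-69353062 (Cdk1, minus), chr2:164769779-164769928 (Ube2c, plus), chr19:37376232-37376381 (Kif11, plus) and chr6:66535071-66535220 (Mad2l1, plus).
Cdc20: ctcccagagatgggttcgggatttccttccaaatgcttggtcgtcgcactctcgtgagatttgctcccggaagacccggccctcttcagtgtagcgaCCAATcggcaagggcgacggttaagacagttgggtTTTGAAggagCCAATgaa
Cdk1: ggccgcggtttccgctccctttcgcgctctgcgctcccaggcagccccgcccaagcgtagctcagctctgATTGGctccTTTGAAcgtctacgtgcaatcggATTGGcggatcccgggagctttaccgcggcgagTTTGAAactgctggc
Ube2c: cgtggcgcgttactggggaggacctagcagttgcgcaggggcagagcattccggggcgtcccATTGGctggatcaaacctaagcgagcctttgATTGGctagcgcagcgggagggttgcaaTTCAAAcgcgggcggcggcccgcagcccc
Kif11: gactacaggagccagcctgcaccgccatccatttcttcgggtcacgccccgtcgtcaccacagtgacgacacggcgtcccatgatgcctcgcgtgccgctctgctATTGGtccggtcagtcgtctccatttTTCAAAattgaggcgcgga
Mad2l1: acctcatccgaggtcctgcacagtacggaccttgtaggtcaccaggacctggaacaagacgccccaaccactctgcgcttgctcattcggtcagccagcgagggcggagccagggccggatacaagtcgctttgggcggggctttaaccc

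Cdc20, Cdk1, Ube2c and Kif11 each have at least 1 CCAAT match upstream of a CHR match that lies close to the start. The 32 measured genes with a CHR match in a window had differences from -0.72 to -0.062 on the log2 scale between Blnc1 and vector cells, with a median of -0.30. The 7 genes with a window but no CHR match had a median of -0.31 and ran from -0.45 to 0.23, so the medians lay close together. Among the genes outside the list, 567 had both motifs in 1 window, and their median difference was 0.0028, with 11.3% lower at an unadjusted p under 0.05, against 9.08% of all genes.

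The arrays were checked against their labels. The Blnc1 transcript, read from the brighter probe set named C730029A08Rik, stood at 8.08 and 8.14 in vector cells and 12.73 and 12.75 in Blnc1 cells. The dimmer probe set of that name read 6.82 and 6.40 in vector cells and 6.35 and 6.24 in Blnc1 cells, a difference of -0.31 ± 0.14 (SE), so both Blnc1 arrays lay below both vector arrays there. Adipocyte markers were bright in both groups, with Fabp4 at 13.27 to 13.29 and Adipoq at 12.74 to 12.89, and their median difference was -0.046 over 7 measured genes. The 18 probe sets named for spike-in controls, of hybridization or of labelling, had a median difference of -0.27. Of the sex-linked transcripts, Eif2s3y, Kdm5d and Uty stood at -1.18, -0.87 and -1.02 and Xist at 0.55 (Blnc1 minus vector). Each was under an adjusted p of 0.05 (limma adjusted p = 0.012, 0.0289, 0.0341 and 0.0479), so the groups also differed in these genes. Over all genes 0.366% were lower and 0.86% higher at that threshold. The part of these shifts in the differences of the mitotic genes was not tested.

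The comparison asked how mitotic transcripts differed between Blnc1 and vector cells after differentiation. Nearly the whole set was lower in Blnc1 cells, by small amounts. Of the 46 genes 44 had a negative log2 fold change (Blnc1 over vector), against 48.4% of all genes, and the median was -0.31, against 0.0073 over all genes. Both Blnc1 arrays lay below both vector arrays for 40 genes, against 24.9% of all genes, and above them for 1 gene, against 28.3%. At an unadjusted p under 0.05 (limma, a linear model with moderated variances over all probe sets) 33 genes were lower, against 9.08% of all genes, and 1 was higher, against 11.7%. After Benjamini-Hochberg adjustment over all 23599 probe sets, 2 genes passed a threshold of 0.05, Ttk and Cdc20, both lower, against 0.366% of all genes lower at that threshold. None of the 46 passed as higher, against 0.86% of all genes. A log2 fold change under -0.5 was found for 8 genes, against 1.42% of all genes. At a threshold of 0.10, 12 genes were lower, against 1.99% of all genes. These counts describe genes that are transcribed together in the cell cycle and are not independent of each other.

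**Figure D1:**
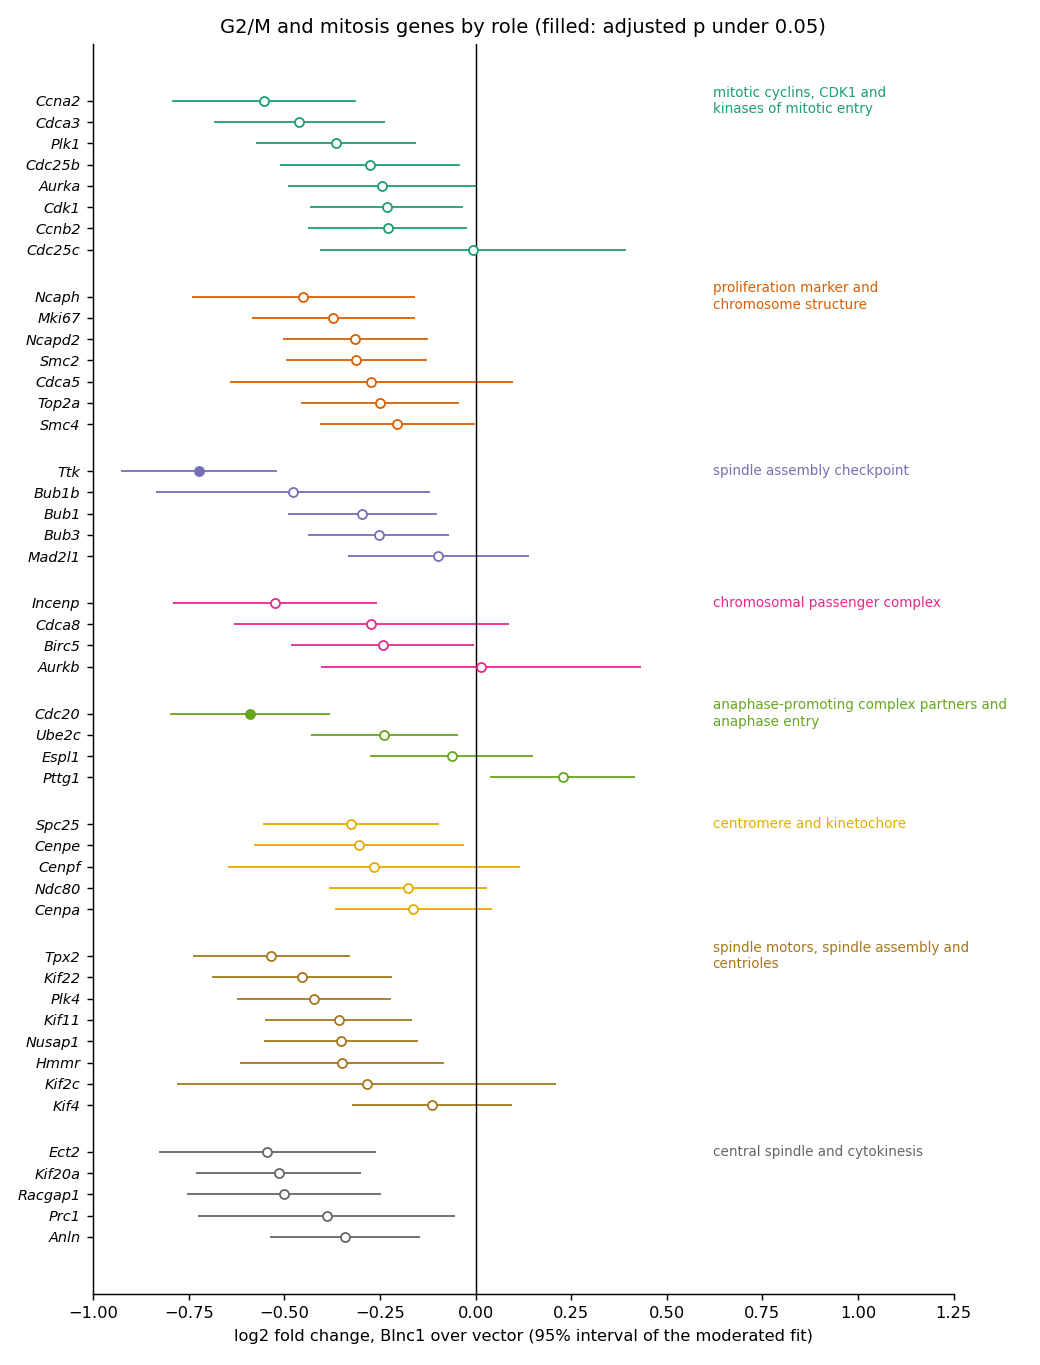
Log2 fold change of each measured G2/M and mitosis gene, Blnc1 over vector, on the horizontal axis, with genes grouped and coloured by role on the vertical axis; bars are 95% intervals of the moderated fit and filled points passed an adjusted p of 0.05. Of the 46 points 44 lie left of 0, with Ttk at -0.72 the lowest and Pttg1 at 0.23 the highest.

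The 2 calls depended on the settings of the test. Without vector replicate 1, vector replicate 2, Blnc1 replicate 1 or Blnc1 replicate 2, neither gene passed, with limma adjusted p of 0.0885, 0.112, 0.113 and 0.159 for Ttk and of 0.149, 0.15, 0.115 and 0.172 for Cdc20. Cdc20 also missed the threshold with a robust variance prior (limma adjusted p = 0.0532). The count of 33 genes lower at an unadjusted p under 0.05 (limma) dropped to 20 when vector replicate 2 was left out, against 5.67% of all genes in that fit, and also to 20 when Blnc1 replicate 2 was, against 5.89%. It was 25 without vector replicate 1, against 6.12% of all genes, and 35 without Blnc1 replicate 1, against 9.89%. With a variance prior that follows the signal level, 27 genes were lower and 1, Pttg1, was higher at an adjusted p of 0.05 (limma), against 4.94% of all genes lower and 6.38% higher in that fit. With only the probe sets above the median level, 17 of 39 measured genes were lower (limma), against 3.47% of all genes there.

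The cyclins and kinases that bring a cell into mitosis were measured by 8 genes, all with negative values, against 48.4% of all genes. None passed, and 6 were lower at an unadjusted p under 0.05, against 9.08% of all genes. Ccna2, which encodes cyclin A2, read 7.88 and 8.09 on the log2 scale in the vector arrays and 7.47 and 7.39 in the Blnc1 arrays. The Blnc1 arrays lay well below both vector arrays, and the difference was -0.55 ± 0.098 (SE, n = 2 each, limma adjusted p = 0.0704). Its further probe set stood at -0.38 ± 0.079 (SE). Cdca3, which encodes a substrate adaptor needed for timely mitotic entry, read 8.86 and 8.93 in vector cells and 8.35 and 8.52 in Blnc1 cells. That difference of -0.46 ± 0.091 (SE) did not pass either (limma adjusted p = 0.0843). Cdk1, the central mitotic kinase and among the 3 highest signals of the set, read 10.09 and 10.10 in vector cells and 9.92 and 9.81 in Blnc1 cells. Its groups did not overlap, but the difference was small, at -0.23 ± 0.082 (SE, limma adjusted p = 0.208). Plk1, a kinase that drives entry and spindle maturation, stood at -0.36, the CDK1-activating phosphatase Cdc25b at -0.28, the spindle pole kinase Aurka at -0.24 and cyclin B2, Ccnb2, at -0.23. The related phosphatase Cdc25c was dim and stood at -0.0059 with a 95% interval of -0.41 to 0.39. Its vector arrays, at 4.31 and 4.81, enclosed both Blnc1 arrays, so no difference was detectable.

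Chromosome structure genes gave 7 negative values. Both Blnc1 arrays lay below both vector arrays for all 7, against 24.9% of all genes, though none passed. Mki67, the classical proliferation marker whose protein coats mitotic chromosomes, read 9.46 and 9.60 in vector cells and 9.19 and 9.12 in Blnc1 cells. This was 77.3% of the vector level (log2 fold change -0.37 ± 0.087 SE, limma adjusted p = 0.11). Among the condensin genes, Ncaph read 6.46 and 6.499 in vector cells and 6.19 and 5.87 in Blnc1 cells, a difference of -0.45 ± 0.12 (SE, limma adjusted p = 0.135). Its Blnc1 arrays differed from each other by more than the higher of them did from either vector array. Smc4, also among the 3 highest signals, read 10.03 and 10.07 in vector cells and 9.91 and 9.79 in Blnc1 cells (-0.20 ± 0.082 SE, limma adjusted p = 0.258). The other condensin genes Ncapd2 and Smc2 both stood at -0.31. Top2a, which encodes the topoisomerase that untangles sister chromatids, stood at -0.25, and Cdca5, which encodes the cohesion protector sororin, at -0.27.

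The spindle checkpoint held the largest difference of the set. Ttk, which encodes the kinase MPS1 that starts checkpoint signalling at unattached kinetochores, read 6.91 and 7.01 in vector cells and 6.27 and 6.20 in Blnc1 cells. Replicates lay close together and the groups were far apart, and Ttk fell to 60.6% of the vector level (log2 fold change -0.72 ± 0.083 SE, 95% interval -0.93 to -0.52, limma adjusted p = 0.0348). Bub1b, which encodes the checkpoint protein BUBR1, read 7.60 and 7.95 in vector cells and 7.43 and 7.17 in Blnc1 cells. The groups did not overlap, but both were wide, and the difference of -0.48 ± 0.15 (SE) did not pass (limma adjusted p = 0.171). The further probe set of Bub1b stood at 0.011 ± 0.080 (SE), so the probe sets of this gene disagreed. Bub1, a checkpoint kinase, stood at -0.30 and Bub3, the partner that recruits it to kinetochores, at -0.25. Mad2l1, which encodes the inhibitor of CDC20, read 9.39 and 9.48 in vector cells and 9.43 and 9.24 in Blnc1 cells. Its groups overlapped and the 95% interval of its difference ran from -0.33 to 0.14.

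Cdc20, the activator of the anaphase-promoting complex that the checkpoint inhibits, read 9.52 and 9.53 in vector cells and 9.01 and 8.87 in Blnc1 cells. The vector arrays were nearly equal and both Blnc1 arrays lay below them, at 66.4% of the vector level on average (log2 fold change -0.59 ± 0.085 SE, limma adjusted p = 0.0498). Ube2c, the ubiquitin-conjugating enzyme that works with the complex, stood at -0.24 ± 0.079 (SE). Espl1, which encodes separase, the protease that cuts cohesin at anaphase, stood at -0.062 with overlapping groups.

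Pttg1 was the 1 gene of the set with both Blnc1 arrays above both vector arrays. It encodes securin, the inhibitor of separase that is destroyed at anaphase, and its probe set gave the highest signal of the 46. It read 10.66 and 10.60 in vector cells and 10.84 and 10.87 in Blnc1 cells. The replicates of each group lay close together, at a difference of 0.23 ± 0.077 (SE, 95% interval 0.038 to 0.42), which did not pass (limma adjusted p = 0.199). The further probe sets of Pttg1 stood at 0.43 ± 0.098 and 0.26 ± 0.10 (SE), so all 3 were positive. Its promoter window had neither a CHR nor a CCAAT match, which also held for Birc5, Mad2l1, Ncaph, Nusap1 and Plk4, and this window does not lie at the outermost annotated start of the gene.

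**Figure D2:**
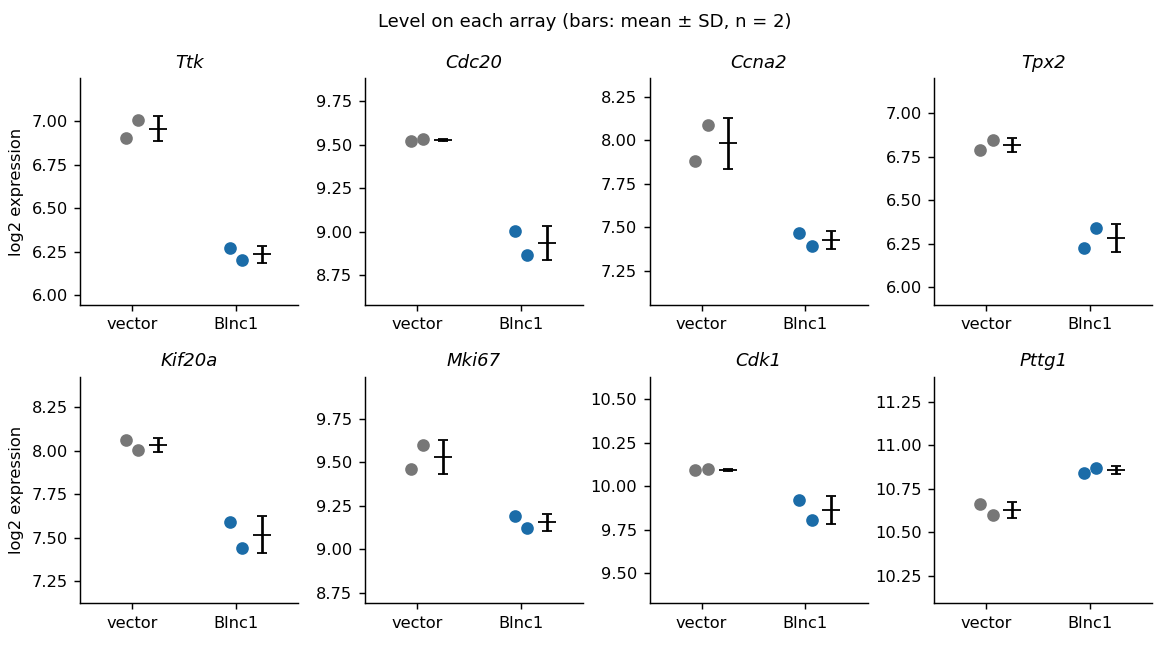
Log2 expression on each array for 8 of the genes, with vector arrays in grey, Blnc1 arrays in blue and bars for the mean ± SD of 2 arrays; every panel spans the same range of log2 units. Groups are apart in all 8 panels, lower in Blnc1 cells in 7 and higher for Pttg1 (10.66 and 10.60 against 10.84 and 10.87). Over all genes both Blnc1 arrays lay below both vector arrays for 24.9% and above them for 28.3%. The 8 genes were picked from those named for their difference, p or level, so the count of panels says nothing of other genes.

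The chromosomal passenger complex corrects faulty attachments and acts again in cytokinesis. Incenp, its scaffold, read 6.90 in both vector arrays and 6.52 and 6.24 in the Blnc1 arrays. The groups were apart, and the difference was -0.52 ± 0.11 (SE, limma adjusted p = 0.0889). The targeting subunits Cdca8 (borealin) and Birc5 (survivin) stood at -0.27 and -0.24. Aurkb, the kinase of the complex, read 6.39 and 6.58 in vector cells and 6.75 and 6.25 in Blnc1 cells. The Blnc1 arrays enclosed the vector arrays, and the difference was 0.014 with a 95% interval of -0.40 to 0.43. The further probe set of Aurkb stood at -0.27 ± 0.18 (SE), and the sign of this gene's difference turned to -0.0018 when each array was centred on its median.

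Among the 5 measured centromere and kinetochore genes all values were negative, against 48.4% of all genes. They were small, and none passed. Spc25, a subunit of the NDC80 complex that grips spindle microtubules, read 9.21 and 9.06 in vector cells and 8.87 and 8.75 in Blnc1 cells (-0.33 ± 0.094 SE, limma adjusted p = 0.155). The groups were apart by slightly more than the spread within each of them. The kinetochore motor Cenpe stood at -0.31, Cenpf at -0.27, the core subunit Ndc80 at -0.18 and the centromeric histone Cenpa at -0.16.

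The spindle motors and assembly factors gave 8 negative values of 8, against 48.4% of all genes. None passed, and 6 were lower at an unadjusted p under 0.05, against 9.08% of all genes. Tpx2, which activates Aurora A and nucleates spindle microtubules, read 6.79 and 6.85 in vector cells and 6.23 and 6.34 in Blnc1 cells. The gap between groups was several times the spread within them, and the difference of -0.53 ± 0.083 (SE) just missed the threshold (limma adjusted p = 0.0589). The further probe set of Tpx2 stood at -0.19 ± 0.079 (SE). Kif22, a chromosome-arm kinesin, read 6.13 and 6.11 in vector cells and 5.77 and 5.57 in Blnc1 cells (-0.45 ± 0.096 SE, limma adjusted p = 0.0933). Its dimmer probe set stood at -0.064 ± 0.079 (SE), so the size of this difference depended on the probe set. Plk4, the kinase of centriole duplication, stood at -0.42, the bipolar spindle motor Kif11 at -0.36, the bundling protein Nusap1 at -0.35 and Hmmr at -0.35. The further probe sets of Hmmr stood at -0.48, -0.49 and -0.31. The microtubule depolymerase Kif2c (-0.28) and the chromokinesin Kif4 (-0.11) had 95% intervals that included 0.

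Cytokinesis genes had the lowest median of the 8 role groups, at -0.50. All 5 were lower at an unadjusted p under 0.05, against 9.08% of all genes, though none passed. The groups were formed by function, and their medians were not tested against each other. Ect2, the exchange factor that activates RhoA at the division plane, read 7.44 and 7.69 in vector cells and 6.93 and 7.11 in Blnc1 cells (-0.54 ± 0.12 SE, limma adjusted p = 0.0934). Racgap1, which binds it and is a subunit of centralspindlin, read 7.30 and 7.27 in vector cells and 6.90 and 6.66 in Blnc1 cells (-0.50 ± 0.10 SE, limma adjusted p = 0.088). Kif20a, a motor of the central spindle, read 8.06 and 8.005 in vector cells and 7.59 and 7.44 in Blnc1 cells (-0.51 ± 0.088 SE, limma adjusted p = 0.0658). In all 3 genes the groups were apart. The further probe set of Racgap1 stood at -0.46 ± 0.12 (SE). Prc1, the microtubule crosslinker of the central spindle, stood at -0.39 and its further probe set at -0.58, and the ring scaffold anillin, Anln, stood at -0.34.

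Further probe sets bore on 21 of the genes. Of these 27 probe sets 24 had the sign of the probe set used, and none passed (smallest limma adjusted p = 0.062). At an unadjusted p under 0.05, 13 were lower and 2 higher, beside 9.08% and 11.7% of all genes. The exceptions in sign were the probe sets of Bub1b and Aurkb given above and a dim one of Cenpa, at 0.071. Most of the genes were well expressed, 39 of 46 lying above the median level of all probe sets. Across the 46 genes, which share the same 4 arrays, level and difference had a Pearson r of 0.060 and a Spearman rho of 0.13. The 39 genes above the median level had a median difference of -0.31, and the 7 below it -0.18. At an unadjusted p under 0.05 (limma), 31 of the 39 and 2 of the 7 were lower, against 9.08% of all genes. Both Blnc1 arrays lay below both vector arrays for 36 of the 39 and 4 of the 7, against 28.7% and 19.2% of all genes at those levels. The 7 dim genes thus had a smaller median difference, but they are few, and dim genes were lower less often over all genes too. The reason was not tested.

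The arrays did not place the genes equally within a group. After subtracting each gene's mean, the median gene stood at 0.13 and 0.18 in vector replicates 1 and 2 and at -0.11 and -0.18 in Blnc1 replicates 1 and 2. Blnc1 replicate 2 held the lowest value of 33 genes and Blnc1 replicate 1 that of 11. Blnc1 replicate 2 was below Blnc1 replicate 1 for 34 genes, against 61.7% of all genes, with a median difference of -0.11 against -0.039 over all genes. Vector replicate 2 was below vector replicate 1 for 18 genes, against 50.6% of all genes, with a median difference of 0.026. The gap between the groups was therefore larger than the gap within either.

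**Figure D3:**
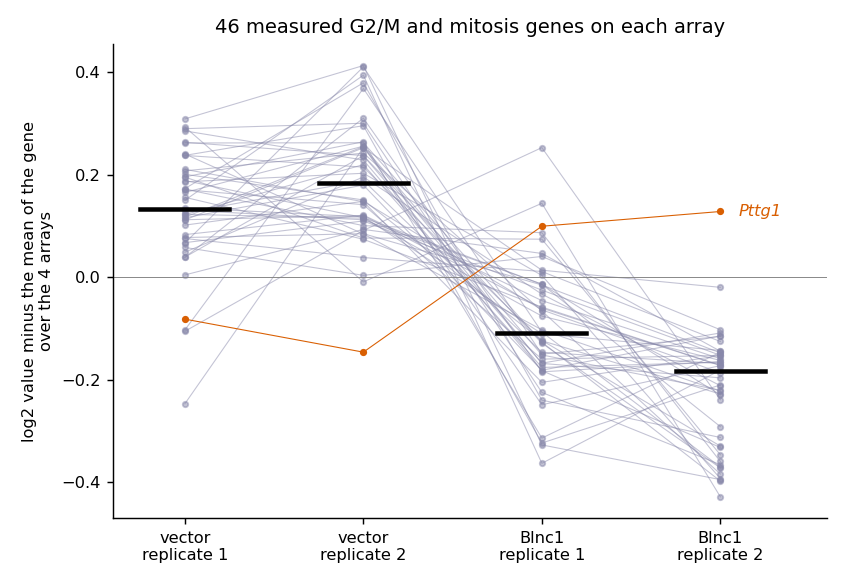
Log2 value of each of the 46 genes on each array minus that gene's mean over the 4 arrays; thin lines join the values of a gene, black bars are the medians, and Pttg1 is orange. The medians are 0.13 and 0.18 in the vector arrays and -0.11 and -0.18 in the Blnc1 arrays.

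Other cell cycle genes were then set beside these. Of 58 other measured mitosis genes 52 were negative, against 48.4% of all genes, with a median of -0.20. Kif18a, a motor that dampens chromosome movements, was the only one that fell, at -0.67 ± 0.095 (SE, limma adjusted p = 0.0492). Over all genes 0.366% were lower at that threshold. Kif18a was dim, at 5.46 and 5.30 in vector cells and 4.78 and 4.65 in Blnc1 cells, below the median level of all probe sets. It did not pass without any 1 of the 4 arrays (limma adjusted p 0.104 to 0.176), nor with a robust variance prior or repeated quantile normalization (limma adjusted p 0.0532 and 0.0556). The spindle protein Dlgap5 and the Aurora A cofactor Bora stood at -0.49 and -0.58, and the kinase Melk, named after its values were seen, at -0.86 ± 0.15 (SE). In this list 22 genes were lower and 0 higher at an unadjusted p under 0.05, against 9.08% and 11.7% of all genes. With a variance prior that follows the signal level, 18 of the list were lower at an adjusted p of 0.05 (limma), against 4.94% of all genes. Subunits and regulators of the anaphase-promoting complex and of cohesin, which act outside mitosis as well, had a median of -0.092 over 23 genes. None of them passed, with 2 lower and 1 higher at an unadjusted p under 0.05 (9.08% and 11.7% of all genes). Of the 23 genes 15 were negative, against 48.4% of all genes. Both Blnc1 arrays lay below both vector arrays for 14 and above them for 2, against 24.9% and 28.3% of all genes. Cdc16, Smc3 and Anapc16 stood at -0.24, -0.21 and 0.23. Under the signal-dependent prior 1 passed as lower, Cdc16, and 1 as higher, Anapc16.

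Genes of the G1/S transition and of DNA replication lay nearer to 0. Their median was -0.048 over 50 genes, and 31 were negative, against 48.4% of all genes. None passed in the limma fit, with 6 lower and 4 higher at an unadjusted p under 0.05, against 9.08% and 11.7% of all genes. With a variance prior that follows the signal level, 2 were lower (Dbf4 and Ccnd2) and 3 higher (Gmnn, Rfc3 and Gins2, the last 2 named after their values were seen) at an adjusted p of 0.05 (limma), against 4.94% and 6.38% of all genes. The members with the smallest p were Dbf4, the activator of the replication kinase CDC7, at -0.42 ± 0.080, the replisome gene Gins3 at -0.38 ± 0.075 and the D-type cyclin Ccnd2 at -0.34 ± 0.080 (SE). Gmnn, which encodes the replication inhibitor geminin and was named after its values were seen, stood at 0.54 ± 0.13 (SE). Whether the G1/S list differed from the mitotic genes was not tested. The 19 measured regulators of G2/M transcription had a median of -0.016, and none passed in the limma fit, with 3 lower and 0 higher at an unadjusted p under 0.05, beside the same shares of all genes. The repressor E2f8 stood at -0.37, the MuvB subunit Rbbp4 at -0.27 and E2f5 at -0.25. The first 2 of these passed as lower under the same signal-dependent prior. Foxm1, the activator of late mitotic genes, named after its values were seen, was dim and stood at -0.14 ± 0.098 (SE) with overlapping groups. The 19 measured cell cycle inhibitors and p53 targets had a median of -0.027. None passed in the limma fit, with 1 lower and 3 higher at an unadjusted p under 0.05, again beside 9.08% and 11.7% of all genes. The inhibitor of CDK4 and CDK6, Cdkn2b, read 7.23 and 7.48 in vector cells and 8.03 and 8.08 in Blnc1 cells, a difference of 0.70 ± 0.11 (SE, limma adjusted p = 0.0547). The antiproliferative gene Btg2 stood at 0.48 ± 0.078 and the inhibitor Cdkn2c at -0.32 ± 0.081 (SE). With a variance prior that follows the signal level, 3 genes of this list were higher (Cdkn2b, Btg2 and Btg1, the last named after its values were seen) and 1 lower (Cdkn2c) at an adjusted p of 0.05 (limma), against 6.38% and 4.94% of all genes, with limma adjusted p of 0.00102 for Cdkn2b, 0.00579 for Btg2 and 0.00382 for Cdkn2c. Cdkn2b also passed after median centring of each array (limma adjusted p = 0.0495) and in the fit of gene means (0.0412). It passed as well without probe sets with _x_, _s_ or _a_ in their names (limma adjusted p = 0.0387). With only the probe sets above the median level, Cdkn2b, Btg2 and Cdkn2c all passed (limma adjusted p = 0.0202, 0.019 and 0.046). None of these passed with a robust variance prior (limma adjusted p = 0.0597, 0.0665 and 0.135) or repeated quantile normalization (0.0604, 0.0745 and 0.107). Nor did any pass with the replicate number as a block (limma adjusted p = 0.0863, 0.113 and 0.162). On leaving out arrays, Cdkn2b ranged from 0.58 to 0.83, Btg2 from 0.44 to 0.51 and Cdkn2c from -0.37 to -0.26.

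**Figure D4:**
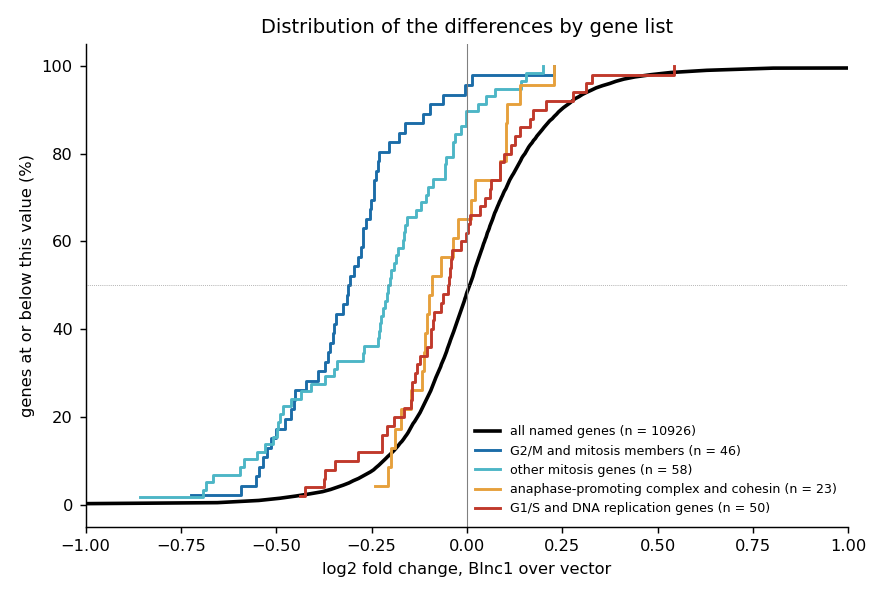
Cumulative share of genes (%) against log2 fold change, Blnc1 over vector, for the G2/M and mitosis genes, 3 other cell cycle lists and all named genes. At 50% the mitotic genes cross at -0.31 and the other mitosis genes at -0.20, while the curve of the G1/S genes crosses at -0.048 and that of all genes at 0.0073.

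Markers of cell identity were set beside the mitotic genes. All 8 measured brown adipocyte markers were higher in Blnc1 cells. Of these, 5 passed the threshold, against 0.86% of all genes, Ucp1 and Cidea among them at 2.997 and 3.12. All 8 measured of 10 preadipocyte and fibroblast markers were negative (median -0.28), against 48.4% of all genes, and none passed. On the linear scale their summed level was 2278 and 2425 in the vector arrays and 1713 and 1803 in the Blnc1 arrays. Most of that sum came from 1 gene, Col3a1, at log2 values of 10.86 and 10.94 in vector cells and 10.40 and 10.51 in Blnc1 cells. The sum therefore says little about the other markers, of which Dlk1 stood at -0.42 ± 0.079 (SE). This list was lower on the same arrays as the mitotic genes, and its part in the result was not tested. The measured markers of macrophages and leukocytes (3 genes), endothelium (1 gene) and skeletal muscle (3 genes) were dim, with vector means between 4.13 and 4.99, and none passed.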

How the data were processed

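Biotinylated RNA was read on Affymetrix PM Strip arrays of 1 colour. Each probe set has 1 deposited log2 value per array, and RMA, affy and limma are named as the authors' tools in the submitters' processing notes, with no version, setting or order. That the scale is log2 was read from the range of 2.70 to 13.3. RMA compresses the differences of dim probe sets, and raw intensities were not used here. Array medians lay between 5.98 and 6.04. The median absolute difference between replicates, over probe sets, was 0.091 for vector and 0.10 for Blnc1 arrays.

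Gene symbols came from the GEO platform annotation, with 16692 probe sets holding 1 symbol, 372 several and 6535 none. After leaving out 35 control probe sets, all 23599 were fitted with limma 3.58.1 in R 4.3.3 (lmFit, eBayes, two-sided, no covariate), on 2 vector and 2 Blnc1 arrays, with Benjamini-Hochberg adjustment. The prior had 3.95 degrees of freedom and an SD of 0.092. The script was tested on simulated data. Groups and replicate numbers came from the sample titles.

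The genes and lists were chosen with earlier results of these data known. Genes given with every array were those past the threshold, the 12 largest differences, the smallest p in each role group, the 3 brightest, and any higher at an unadjusted p under 0.05. From each other list the genes past the threshold and the 3 with the smallest p were named. Alternatives were other variance priors, scalings, gene means, an adjusted p of 0.10, a replicate block, and omitting each array in turn. Filters left out dim probe sets or those with _x_, _s_ or _a_ in their names.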

Additional observations from a re-analysis of the deposited data

How the results depend on the processing

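The median difference of the mitotic genes kept its direction in every alternative run, between -0.35 and -0.28, and moved by less than the spread between replicates. The count of 2 genes lower at an adjusted p of 0.05 (limma) became 1 with a robust variance prior, 17 among probe sets above the median level (against 3.47% of all genes there) and 27, with 1 gene higher, under an intensity trend. It became 12 at a threshold of 0.10 and lay between 0 and 0 when each array was left out. For single genes, Aurkb turned to -0.0018 after median centring and to -0.13 as the mean of its probe sets. Cenpa turned to 0.071 without probe sets with _x_, _s_ or _a_ in their names, which left only its dim probe set. On leaving out arrays, Aurkb ranged from -0.23 to 0.26, Cdc25c from -0.26 to 0.24, Kif2c from -0.57 to 0.0022 and Espl1 from -0.13 to 0.0096. The count lower at an unadjusted p under 0.05 ranged from 20 to 35 on leaving out arrays, against 5.67 to 9.89% of all genes. Over all genes, 40 were lower and 94 higher, and after median centring 79 and 108. The titles do not say whether a replicate number pairs a vector with a Blnc1 array. The correlation of replicate deviations was 0.089, which cannot settle this with 2 arrays per group. With the replicate number as a block 0 genes passed (2 lower and 17 higher over all genes). In that fit 33 were lower at an unadjusted p under 0.05 (9.28% of all genes), and Kif18a had a limma adjusted p of 0.0819. The causes were not tested. Dim probe sets, Cdc25c and Ndc80 among them, lie where RMA compresses differences.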
